A study of Homo sapiens with 12 samples.

Results

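The forkhead box (FOX) transcription factors described here were FOXP4, FOXP1, FOXN2, FOXN3, FOXC1, FOXO1, FOXO3, FOXK1, FOXK2 and FOXJ3, that is 10 of the 49 forkhead genes examined and of the 58302 genes in the RNA-seq tables. They were chosen by gene symbol, with the NUF2 knockdown results of these same libraries in view: FOXP4 because it was higher and FOXN2 because it was lower after knockdown in both cell lines, and the other 8 as expressed relatives. Their knockdown values are therefore given as a description, without a test. The study asked what NUF2, a subunit of the NDC80 complex that ties kinetochores to spindle microtubules, does in clear cell renal cell carcinoma. RNA was taken 48 h after 2 human lines, 769-P and ACHN, were transfected with si-NUF2, a mixture of siRNA-NUF2-2 and siRNA-NUF2-3 that targets NUF2, or with a control siRNA (si-NC), and each of the 4 groups has 3 libraries labelled repeat 1 to 3. The control cells were thus transfected as well, and nothing in the sources used here says whether a repeat is a separate culture, so the p-values measure the spread between these libraries, which may be technical.

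The labels call both lines clear cell renal cell carcinoma cells. The renal lineage genes PAX8, PAX2 and CDH16 were present in every library, PAX8 at 44.7 to 70.6 FPKM (fragments scaled by gene length and library size) in 769-P and 57.1 to 199 in ACHN, whereas CA9, the hypoxia target that marks most clear cell tumours, was between 0 and 0.121 FPKM in all 12. Of 8 markers of immune, endothelial, stromal and liver cells, 7 stayed below 0.1 FPKM in every library and ACTA2 was at 1.66 to 4.55. The targeted gene fell. NUF2 was at 4.17, 3.86 and 3.01 FPKM after si-NUF2 in 769-P against 19.4, 17.8 and 17.8 after si-NC, and at 2.16, 5.14 and 4.25 against 11.6, 15.01 and 14.8 in ACHN, so the groups did not overlap in either line. The log2 difference was -2.29 ± 0.13 (SE) in 769-P (limma adjusted p = 0.00118) and -1.87 ± 0.32 in ACHN, where the adjusted p was 0.224 without and 0.0122 with the repeat number as a block, and between 0.0112 and 0.802 over all alternatives. The libraries held 26368590 to 34583494 whole reads recovered from the FPKM values.

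Forkhead factors share a winged-helix domain that contacts DNA, and they differ in the segments around it. FOXO factors are switched off by growth factor signalling: PI3K activates AKT, AKT phosphorylates FOXO, and 14-3-3 proteins hold it in the cytoplasm, so that genes for cell cycle arrest and stress resistance are no longer induced. FOXP factors dimerise through a leucine zipper and mostly repress, FOXK factors recruit the SIN3A corepressor and compete with FOXO on shared genes, FOXN3 was first described as a checkpoint suppressor, and FOXC1 is needed for eye, vascular and kidney development.

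An siRNA guide can also pair with other mRNAs through its seed, bases 2 to 8 from the guide's 5′ end. The letters searched were TTAAGCA, which pair with the seed of siRNA-NUF2-2, and TTGAGAG, which pair with that of siRNA-NUF2-3, on the mRNA strand of the longest protein-coding transcript of each gene. Each word occurred once in the NUF2 transcript, inside the intended sites. These sites are shown because they are what the seeds come from, with the seed match in capitals, on the plus strand of GRCh38.

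siRNA-NUF2-2, NUF2 coding sequence, chr1:163347900-163347918: gcatgaagatgTTAAGCAa
siRNA-NUF2-3, NUF2 coding sequence, chr1:163347774-163347792: ggaggaccaaaTTGAGAGt

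TTAAGCA was present in 3 of the 10 members, FOXN2, FOXN3 and FOXC1, and TTGAGAG in 2 of 10, FOXN3 and FOXK1. Among 12198 protein-coding genes that passed the filter on low values in either line, 20.1% held the first word and 23.4% the second. The members' transcripts were 3926 to 11181 bases long, all above the median of 3389 bases for those genes. Every match lay in a 3′ UTR. The sites of the 3 members with TTAAGCA are printed, and that of FOXK1, at chr7:4766869-4766875, is not. Of the members lower after si-NUF2 in 769-P, FOXN2 and FOXC1 held TTAAGCA, and FOXO1 and FOXO3 held neither word. FOXN3, which carries more matches than FOXN2 or FOXC1, overlapped its control in both lines, and FOXC1 did so in ACHN. The word in capitals starts and ends at the coordinates given, the flanks are 10 bases on each side, and FOXN3 is on the minus strand.

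FOXN2, siRNA-NUF2-2 word, chr2:48377193-48377199: atgaaaacccTTAAGCAtgcaggatga
FOXN2, siRNA-NUF2-2 word, chr2:48378537-48378543: tgccagcaatTTAAGCAacagatgtga
FOXC1, siRNA-NUF2-2 word, chr6:1613809-1613815: gaggcaacacTTAAGCAgtaattgctg
FOXN3, siRNA-NUF2-2 word, chr14:89159105-89159111: agtagagaatTTAAGCAcaagcctatt
FOXN3, siRNA-NUF2-2 word, chr14:89157392-89157398: tattcttgaaTTAAGCAcagactcgtc
FOXN3, siRNA-NUF2-3 word, chr14:89157460-89157466: ccctcttcctTTGAGAGagcaccggcg

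Among the genes with a searched protein-coding transcript that were tested in 769-P, 60.2% of the 2261 with TTAAGCA were below their si-NC level, against 49.4% of the 8813 without it. In ACHN these shares were 57.7% of 2359 and 45.6% of 9314. For TTGAGAG they were 52.5% with and 51.3% without the word in 769-P, and 48.8% and 47.8% in ACHN. Transcript length was not taken into account in these shares. The part of these matches in any member's level was not tested.

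The levels under si-NC set the scale for the rest. In 769-P, FOXC1 was the highest member at 23.7 ± 8.81 FPKM (SD, n = 3), followed by FOXJ3 at 10.9 ± 0.174 and FOXK1 at 10.4 ± 1.24, whose ranges overlapped. FOXO3, FOXP4 and FOXK2 followed at 7.07, 6.73 and 6.61, each overlapping the next, and then FOXN2, FOXO1, FOXP1 and FOXN3 at 3.63, 3.07, 1.69 and 0.705, whose ranges did not overlap their neighbours'. In ACHN, FOXK1 was highest at 14.5 ± 2.19, FOXJ3, FOXO3, FOXN2 and FOXK2 formed an overlapping run from 7.92 to 7.32, and FOXP1 and FOXP4 overlapped at 3.87 and 3.47. FOXC1 was at 1.28 in ACHN and overlapped FOXN3 at 1.004. FOXO1 was not an expressed relative in ACHN: its 6 libraries held 2 to 9 reads each, 0.00927 to 0.0460 FPKM, and it did not pass the filter of 0.5 FPKM in at least 3 libraries of that line. The other members rested on 117 to 8809 reads in each library.

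**Figure D1:**
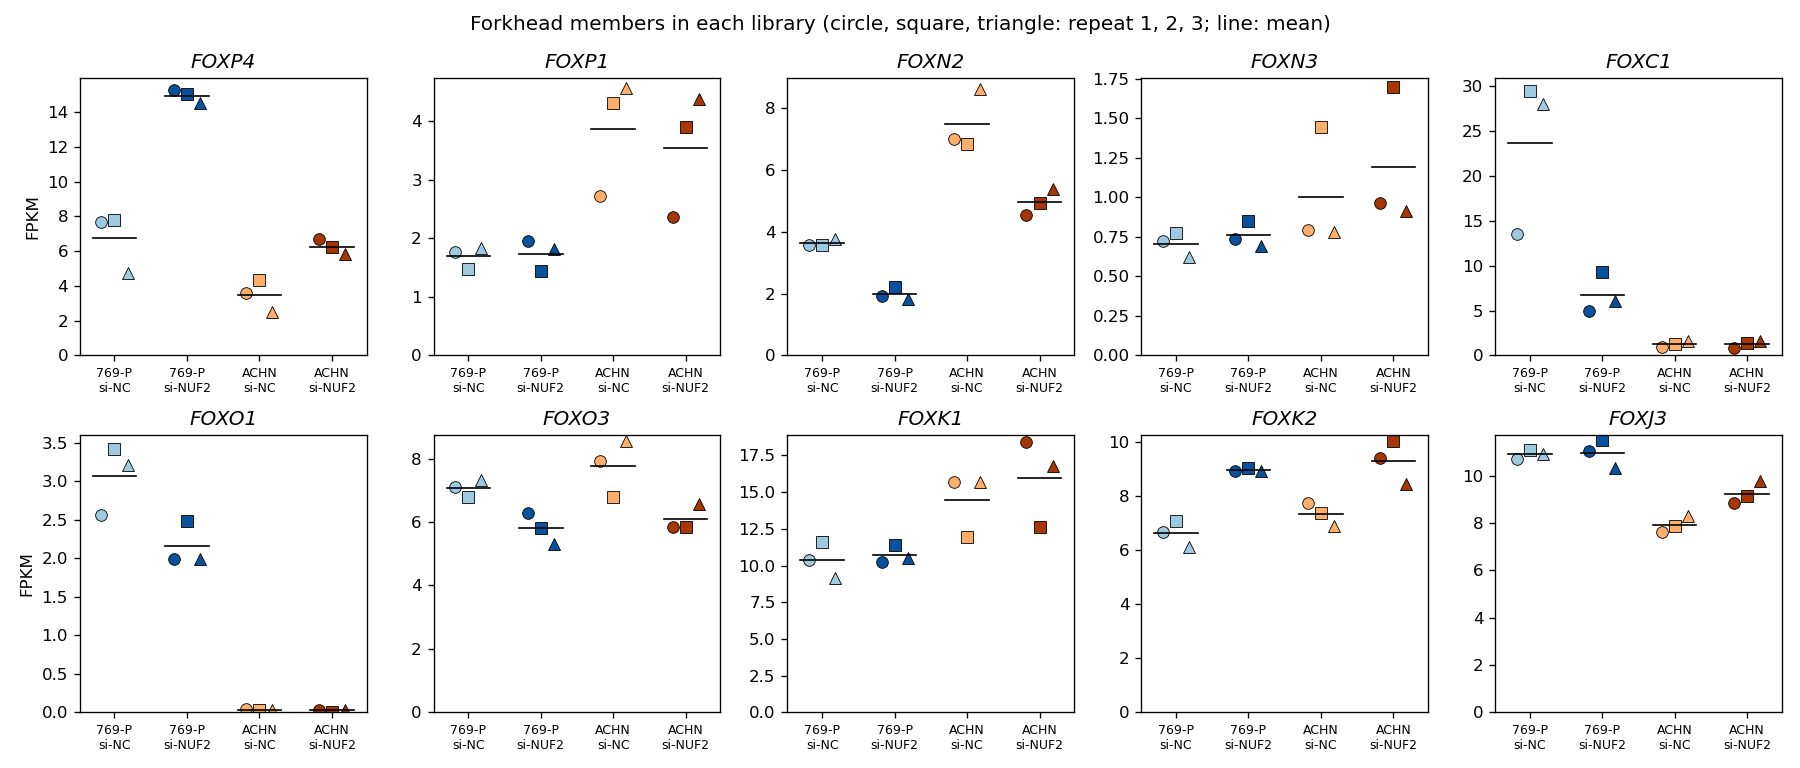
FPKM of the 10 forkhead members in each of the 12 libraries (y axis, from 0, on its own scale in each panel), by line and siRNA (x axis); symbols mark repeats 1 to 3 and lines the mean of 3. FOXP4 and FOXK2 sit higher and FOXN2 and FOXO3 lower after si-NUF2 in both lines, while FOXC1 drops from a mean of 23.7 to 6.74 in 769-P and stays at 1.28 and 1.32 in ACHN.

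FOXP4 (ENSG00000137166, chr6:41546426-41602384, plus strand), a FOXP repressor expressed in developing epithelia, was the member with the highest rise. Its 769-P values were 15.3, 15.01 and 14.5 FPKM with si-NUF2 and 7.69, 7.77 and 4.73 with si-NC. In ACHN it was at 6.68, 6.22 and 5.81 against 3.57, 4.31 and 2.51. Every si-NUF2 library was above every si-NC library of its line, the si-NC library of repeat 3 was the lowest in both lines, and the ACHN si-NUF2 libraries lay below the 769-P control mean of 6.73. Mean FOXP4 after si-NUF2 was 222% of si-NC in 769-P and 180% in ACHN, and the log2 differences on the log2(FPKM + 0.1) scale, used for all differences below, were 1.18 ± 0.19 (SE) and 0.88 ± 0.20. With 1 library left out at a time, the 769-P difference ranged from 0.95 to 1.30 and that of ACHN from 0.67 to 1.05. The response was 0.32 ± 0.30 larger in 769-P. FOXP4-AS1, an antisense RNA of the locus, overlaps FOXP4 only from 41546426 to 41548621, where their reads cannot be told apart without strand. FOXP4-AS1 was at 0.501 to 0.968 FPKM in 769-P (log2 difference 0.44 ± 0.20, adjusted p = 0.205) and 0.124 to 0.648 in ACHN.

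FOXP1 (ENSG00000114861, chr3:70952817-71583993, minus strand), its paralogue in lymphoid and epithelial cells, spanned 1.44 to 1.96 FPKM in 769-P and 2.37 to 4.58 in ACHN over both siRNAs. The groups overlapped in each line, with log2 differences of 0.04 ± 0.16 and -0.11 ± 0.30. In ACHN repeat 1 held its lowest value under both siRNAs.

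FOXN2 (ENSG00000170802, chr2:48314637-48379294, plus strand), a forkhead factor of the same subfamily as FOXN3, was lower after knockdown. In 769-P it was at 1.92, 2.20 and 1.83 FPKM after si-NUF2 and at 3.58, 3.57 and 3.76 after si-NC. In ACHN it was at 4.53, 4.95 and 5.39 against 7.004, 6.84 and 8.62. The groups did not overlap in either line, and the 3 control libraries of 769-P had an SD of 0.106. The mean after si-NUF2 was 54.6% of si-NC in 769-P and 66.2% in ACHN, with log2 differences of -0.84 ± 0.10 and -0.56 ± 0.13 and leave-one-out ranges of -0.90 to -0.79 and -0.63 to -0.46. The response was -0.26 ± 0.16 apart between the lines.

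FOXN3 (ENSG00000053254, chr14:89124871-89619149, minus strand) was the lowest member of 769-P, at 0.621 to 0.848 FPKM over both siRNAs, and reached 0.778 to 1.70 in ACHN. Its groups overlapped in both lines, with log2 differences of 0.10 ± 0.19 and 0.24 ± 0.33. Its highest value under each siRNA in each line was that of repeat 2, and within ACHN the same-numbered libraries differed by 0.26, 0.22 and 0.21. Both paralogues, FOXN2 and FOXN3, carry the siRNA-NUF2-2 word in the 3′ UTR, and its part in their levels was not tested. FOXN2 was below control in all 6 same-numbered pairs. FOXN3 was above it in all 6, by as little as 0.02 in 769-P and with groups that overlapped.

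FOXC1 (ENSG00000054598, chr6:1609972-1613897, plus strand), a single-exon gene, showed the widest spread of all members. In 769-P it was at 4.90, 9.31 and 6.02 FPKM after si-NUF2 and at 13.5, 29.4 and 28.0 after si-NC. In ACHN it was at 0.878, 1.43 and 1.64 against 0.949, 1.32 and 1.59. The 769-P groups did not overlap, although the repeat 1 control was below the other controls by more than the whole range of the si-NUF2 libraries, and the ACHN groups interleaved. The log2 difference was -1.76 ± 0.34 in 769-P, from -2.11 to -1.56 on leaving out 1 library, and 0.04 ± 0.29 in ACHN. The lines differed in this response by -1.78 ± 0.49, the largest such difference among the members, or ± 0.19 with the repeat number as a block. FOXCUT, a noncoding RNA next to FOXC1, was at 0.191 to 0.649 FPKM in 769-P and did not pass the filter in either line.

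FOXO1 (ENSG00000150907, chr13:40469953-40666597, minus strand) and FOXO3 (ENSG00000118689, chr6:108559835-108684774, plus strand) are the AKT-regulated members. In 769-P, FOXO1 was at 1.99, 2.48 and 1.99 FPKM after si-NUF2 and at 2.56, 3.42 and 3.22 after si-NC. The groups did not overlap, with 2.48 and 2.56 as the nearest values, and the log2 difference was -0.48 ± 0.14. In ACHN FOXO1 was left out of the fit within the line, for the lack of reads given above.

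FOXO3 was at 6.29, 5.81 and 5.32 FPKM after si-NUF2 in 769-P and at 7.11, 6.78 and 7.32 after si-NC. In ACHN it was at 5.84, 5.86 and 6.58 against 7.93, 6.78 and 8.57. Every si-NUF2 library was below every control library of its line. The log2 differences were -0.27 ± 0.09 and -0.32 ± 0.12, or 82.2% and 78.5% of the si-NC mean. FOXO3B, a gene with a sequence close to FOXO3 that may share its reads, was at no more than 0.719 FPKM.

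FOXK1 (ENSG00000164916, chr7:4682309-4771443, plus strand) was at 9.12 to 11.6 FPKM in 769-P and 11.9 to 18.4 in ACHN, and its groups overlapped in both lines, with log2 differences of 0.06 ± 0.10 and 0.15 ± 0.19. Repeat 2 had the lowest FOXK1 of ACHN under both siRNAs, 12.7 and 11.9. FOXK2 (ENSG00000141568, chr17:82519713-82644662, plus strand), its paralogue, was at 8.90, 9.004 and 8.90 FPKM after si-NUF2 in 769-P against 6.67, 7.06 and 6.11, and at 9.39, 10.03 and 8.45 in ACHN against 7.73, 7.34 and 6.88. FOXK2 was higher in every si-NUF2 library than in every control of its line, by log2 differences of 0.44 ± 0.08 and 0.36 ± 0.10, and the 3 si-NUF2 libraries of 769-P had an SD of only 0.0606. FOXJ3 (ENSG00000198815, chr1:42176539-42335877, minus strand), an activator known from muscle and germ cells, overlapped in 769-P, from 10.3 to 11.5, with a log2 difference of 0.01 ± 0.07. In ACHN it was at 8.83, 9.15 and 9.75 after si-NUF2 against 7.60, 7.88 and 8.28, groups that did not overlap, with a log2 difference of 0.24 ± 0.09.

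**Figure D2:**
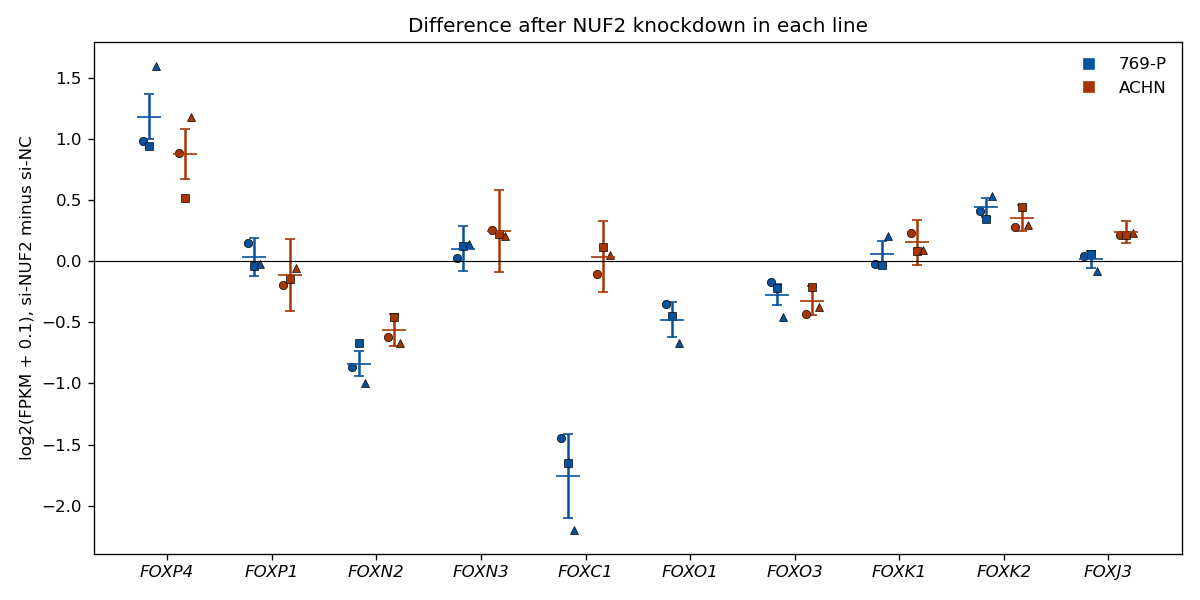
Difference of log2(FPKM + 0.1) between si-NUF2 and si-NC (y axis) for each member (x axis) in 769-P (blue) and ACHN (brown); symbols are same-numbered pairs of libraries, the bar is the difference of means and its whiskers 1 SE. FOXO1 is shown in 769-P alone because it did not pass the filter in ACHN, and FOXC1 separates the lines, at -1.76 and 0.04.

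Across the set, si-NUF2 and si-NC libraries did not overlap for 6 of 10 members in 769-P, with 2 higher and 4 lower, where 33.3% of 14160 genes did the same, 16.03% higher and 17.3% lower. In ACHN this held for 5 of the 9 members that passed the filter, with 3 higher and 2 lower, against 14.3% of 15116 genes, 7.86% higher and 6.44% lower. FOXP4 and FOXK2 were higher and FOXN2 and FOXO3 lower in both lines, and of 12933 genes tested in both, 4.70% were higher and 3.52% lower in this way. Since the members were picked from this contrast, nothing is read from these counts. The median member difference was 0.03 in 769-P and 0.15 in ACHN, beside -0.01 and 0.01 over all genes. As bulk RNA was measured, a change in the share of cells that make a transcript and a change in transcript per cell cannot be told apart.

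The genes whose pattern over the 12 libraries, centred on the mean of each line, was most like that of FOXP4 were TBC1D10B (Pearson's r = 0.989), RABL6 (0.981), SF3B2 (0.975), PPP1R14B (0.973) and MRPS34 (0.972), out of 12933 genes. For FOXN2 they were ZNHIT6 (0.987), TMX1 (0.987), YTHDF3 (0.975), EIF4G2 (0.973) and PRSS8 (0.969). FOXP4 and FOXN2 ran opposite to each other (r = -0.95), which follows from their choice as a riser and a faller. FOXP4 ran with FOXK2 (r = 0.95). All these points share the knockdown, so the coefficients describe the order of the libraries and carry no p.

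The difference between the lines was not used to choose the members and was tested in the control libraries and again in the si-NUF2 libraries. These are other libraries, but same-numbered si-NC and si-NUF2 libraries deviated together, so the second test is not independent of the first. Under si-NC, limma called 7 of 10 members at an adjusted p below 0.05, where 61.4% of 15377 genes were called. FOXP4 was 1.94-fold higher in 769-P than in ACHN (log2 difference 0.97 ± 0.26, adjusted p = 0.0165), a call lost on leaving out the 769-P control of repeat 1 or repeat 2. FOXN2 was 2.06-fold higher in ACHN (-0.99 ± 0.13, adjusted p = 6.1e-04). FOXP1 was 2.28-fold higher in ACHN (-1.09 ± 0.22, adjusted p = 0.00485). With the block 6 of 10 members were called, where 59.3% of all genes were. Between the lines this block joins same-numbered libraries of different lines, and whether those deviate together was not examined. FOXP4 was the higher FOXP gene in 769-P, at 6.73 against 1.69 FPKM, and the 2 overlapped in ACHN.

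FOXC1 was 18.4-fold higher in 769-P under si-NC (4.08 ± 0.33, adjusted p = 8.4e-05). FOXJ3 was 1.38-fold higher there (0.49 ± 0.09, adjusted p = 0.00304). FOXO1 was higher in 769-P by 4.59 ± 0.20 (adjusted p = 7.0e-06), but it entered the comparison only through the 769-P libraries and so had to differ. FOXK1 was 1.39-fold higher in ACHN (-0.44 ± 0.15, adjusted p = 0.0386). With the repeat number as a block its adjusted p was 0.0805, and over all alternatives it was 0.0108 to 0.124. The FOXK1 call was also lost without the filter on low values and without the repeat 1 or repeat 3 control of either line. FOXO3, FOXK2 and FOXN3 did not pass the test, with 95% intervals of -0.38 to 0.19, -0.37 to 0.13 and -1.004 to 0.24.

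Under si-NUF2, 7 of 10 members were called again, where 61.8% of 15267 genes were, with the same signs, and with the block 6 of 10, where 57.1% were. The FOXP4 difference was 1.28 ± 0.09 (adjusted p = 5.1e-05) and that of FOXN2 -1.26 ± 0.13 (adjusted p = 2.3e-04), so FOXP4 was 2.40-fold higher in 769-P and FOXN2 2.50-fold higher in ACHN. FOXC1 was 5.11-fold higher in 769-P (2.28 ± 0.30, adjusted p = 7.5e-04), against 18.4-fold in the controls, and FOXO1 was at 4.16 ± 0.20 (adjusted p = 1.3e-05), with the limit given above. FOXP1 was at -0.93 ± 0.25 (adjusted p = 0.0162), a call lost without the 769-P library of repeat 2 or the ACHN library of repeat 3. FOXK1 was at -0.53 ± 0.15 (adjusted p = 0.0209), lost without the 769-P library of repeat 1 or 3 or the ACHN library of repeat 3. FOXJ3 was at 0.27 ± 0.09 (adjusted p = 0.0365, or 0.0940 with the block and 0.0342 to 0.133 over the alternatives). Its call was lost on FPKM as deposited, without scaling, and without any 1 of the si-NUF2 libraries other than ACHN repeat 3. The 95% intervals of FOXO3, FOXK2 and FOXN3 were -0.31 to 0.22, -0.25 to 0.19 and -1.12 to 0.08.

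**Figure D3:**
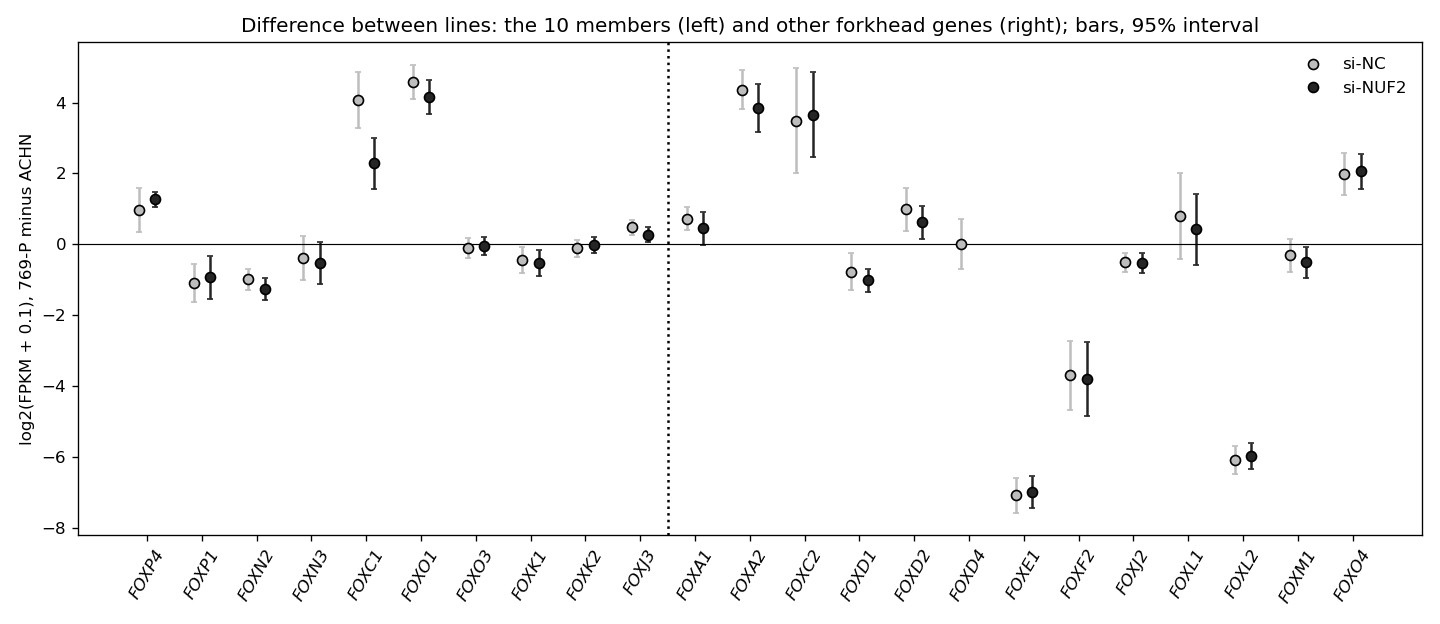
Difference of log2(FPKM + 0.1) between 769-P and ACHN (y axis) for the members, left of the dotted line, and the other forkhead genes that passed the filter (x axis), under si-NC (grey) and si-NUF2 (black), with 95% intervals. FOXC1 falls from 4.08 to 2.28 between the siRNAs, and FOXE1 and FOXL2 lie at -7.08 and -6.08 under si-NC.

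Of the 39 other forkhead genes, 14 passed the filter in at least 1 line, 25 in neither, and 5 of these were at 0 in all 12 libraries. FOXM1, the driver of G2/M transcription, was the most abundant forkhead gene of ACHN, at 28.4 ± 6.82 FPKM under si-NC, and was at 22.1 ± 2.38 in 769-P. Its log2 difference after knockdown was -0.10 ± 0.11 in 769-P (adjusted p = 0.598) and 0.10 ± 0.25 in ACHN (adjusted p = 0.990), with 95% intervals of -0.37 to 0.16 and -0.51 to 0.71. FOXA2 was a 769-P gene, at 2.37 FPKM under si-NC against 0.0240 in ACHN, and FOXE1, FOXL2 and FOXF2, at 15.02, 6.75 and 3.35 in ACHN, were at 0.00898, 0 and 0.136 in 769-P. Of the others, 10 of 13 tested were called between the lines under si-NC, where 61.4% of all genes were, and 10 of 12 under si-NUF2, where 61.8% were. FOXA2, FOXE1, FOXL2 and FOXF2 entered the comparison through 1 line and had to differ. FOXD2 also entered through its 769-P libraries, at 0.863 FPKM against 0.403 in ACHN under si-NC and 0.743 against 0.460 under si-NUF2. The filter thus favoured its calls in both comparisons. FOXC2 was at 11.2 ± 3.84 in 769-P and 1.12 ± 0.789 in ACHN under si-NC (3.48 ± 0.62, adjusted p = 0.0027). FOXO4, another AKT-regulated factor, was 4.32-fold higher in 769-P (1.99 ± 0.24, adjusted p = 5.0e-04). FOXD1 was 1.79-fold higher in ACHN (-0.77 ± 0.22, adjusted p = 0.0195), lost without the 769-P control of repeat 2 or 3. FOXJ2 was 1.46-fold higher in ACHN (-0.50 ± 0.11, adjusted p = 0.00675).

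After knockdown in 769-P, 2 of the 9 other forkhead genes tested were called, where limma called 10.03% of 14160 genes, 5.29% higher and 4.74% lower. FOXA1, a pioneer factor of epithelia, fell from 3.23 ± 0.356 to 2.16 ± 0.197 FPKM (-0.55 ± 0.12, adjusted p = 0.0333), and FOXJ2, the paralogue of FOXJ3, rose from 3.20 ± 0.0792 to 4.27 ± 0.403 (0.41 ± 0.10, adjusted p = 0.0412). The FOXA1 call was lost on leaving out any library of 769-P but the repeat 1 control, and that of FOXJ2 on leaving out any. With the repeat number as a block 4 of 9 were called, where 27.5% of all genes were, 13.6% higher and 13.97% lower: FOXA1, FOXJ2, FOXC2 (0.95 ± 0.25) and FOXD1 (-0.36 ± 0.12). The SEs beside calls made with the block are those of the fit without it. The median of the 9 was -0.10, against -0.01 over all genes. FOXA2, FOXD2, FOXL1 and FOXO4 were at -0.44, -0.18, 0.31 and 0.21 and passed neither test.

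In ACHN 0 of 12 were called, as were 0 of 15116 genes, of which 1238 had an unadjusted p below 0.05 and limma-voom called 0. With the block 2 of 12 were called, both higher, where 12.2% of all genes were, 7.14% higher: FOXJ2 (0.44 ± 0.11) and FOXC2 (0.79 ± 0.79, or ± 0.14 in the fit with the block). Without the block, the FOXC2 difference was 0.052 on leaving out the si-NC library of repeat 1 and 1.39 on leaving out the si-NUF2 library of repeat 1. FOXC2 was at 0.629, 2.004 and 3.02 FPKM after si-NUF2 and at 0.257, 1.31 and 1.80 after si-NC, higher in each same-numbered pair while the groups overlapped. FOXC1, its paralogue, was below control in 769-P where FOXC2 had a mean of 20.9 against 11.2. FOXD4, FOXE1, FOXF2, FOXL2 and FOXP2, tested in ACHN alone, were between -0.31 and 0.29 and passed neither test.

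Upstream of FOXO, a list that shares INSR, IRS2 and RICTOR with that of the FOXO targets, 5 of 31 PI3K-AKT and FOXO regulators tested in 769-P were called, 16.1% against the 10.03% of all genes, with 2 higher and 3 lower and a median of -0.11. SGK1, a kinase that phosphorylates FOXO3 as AKT does, rose from 0.980 ± 0.0471 to 2.61 ± 0.947 FPKM (1.27 ± 0.26, adjusted p = 0.0282). PIK3R1, the regulatory subunit of PI3K, fell from 1.82 ± 0.309 to 1.08 ± 0.0486 (-0.68 ± 0.15, adjusted p = 0.0351). AKT1 rose from 6.35 ± 1.03 to 9.33 ± 0.761 (0.57 ± 0.13, adjusted p = 0.0412), and the catalytic subunit PIK3CB fell from 11.1 ± 0.927 to 8.06 ± 0.854 (-0.45 ± 0.10, adjusted p = 0.0412). PDPK1, which phosphorylates AKT, was the remaining called gene at -0.31 ± 0.08 (adjusted p = 0.0489). Each of these calls was lost on leaving out any 1 of at least 5 of the 6 libraries: the exceptions were the si-NC library of repeat 1 for PIK3R1 and AKT1, the si-NUF2 library of repeat 1 for PIK3CB and that of repeat 2 for SGK1. With the block 12 of 31 were called, 4 higher and 8 lower, where 13.6% of all genes were called higher and 13.97% lower.

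In ACHN, 0 of 31 regulators were called, and 6 of 31 with the block, 3 higher and 3 lower, where 7.14% of all genes were called higher and 5.05% lower. SGK1 (0.62 ± 0.41), AKT1 (0.37 ± 0.09), PIK3CB (-0.77 ± 0.25) and PIK3R1 (-0.46 ± 0.29) were among the 6 and had the signs of 769-P. The median of the 31 in ACHN was 0.01.

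Of 33 genes known as FOXO targets, 26 were tested in 769-P and 3 were called, all lower, or 11.5% against the 10.03% of all genes. CDKN1B, the p27 cell cycle inhibitor, fell from 17.5 ± 2.74 to 11.5 ± 0.310 FPKM (-0.58 ± 0.12, adjusted p = 0.0268). PPARGC1A, the coactivator of mitochondrial and gluconeogenic genes, fell from 8.85 ± 0.784 to 6.23 ± 0.403 (-0.49 ± 0.09, adjusted p = 0.0239), and the mitochondrial peroxidase PRDX3 from 113 ± 8.09 to 83.7 ± 7.01 (-0.42 ± 0.09, adjusted p = 0.0292). The calls of CDKN1B and PPARGC1A were lost without any library but the repeat 1 control, and that of PRDX3 without any but the si-NUF2 library of repeat 1. With the block 15 of 26 were called, 3 higher and 12 lower, where 27.5% of all genes were called, and limma-voom on recovered reads called 8, where it called 11.5% of all genes. The median of the 26 was -0.19, and 20 of them were below 0, as were 7289 of 14160 genes.

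In ACHN, 0 of 24 targets tested were called in the fit that leaves the repeat number out. With the block 8 were called, all lower, where 5.05% of all genes were called lower. The median of the 24 was -0.23, against 0.01 over all genes, and 19 of them were below 0, as were 7371 of 15116 genes. PRDX3 (-0.38 ± 0.16), the cyclin G2 gene CCNG2 (-0.98 ± 0.18), the autophagy gene GABARAPL1 (-0.55 ± 0.20) and the MYC antagonist MXI1 (-0.64 ± 0.12) were among the 8 and were called lower with the block in 769-P too. CDKN1B (-0.44 ± 0.39) was not called in ACHN. The difference in response between the lines was called for 0 of 27 targets and 0 of 16570 genes (772 with an unadjusted p below 0.05, and 0 by limma-voom), and with the block for 1 of 27, PIK3IP1, where 1.39% of all genes were called. PIK3IP1, a PI3K inhibitor, went from 6.25 ± 1.56 to 2.75 ± 1.26 FPKM in ACHN and from 0.572 ± 0.297 to 0.497 ± 0.243 in 769-P, and it was picked out here after its values were seen. FOXO1 and FOXO3 RNA and the lower targets moved in the same direction in 769-P, which follows from taking only the lower targets. CITED2 (0.59 ± 0.18), FBXO32 (0.64 ± 0.18) and SESN1 (0.45 ± 0.19) were the 3 targets called higher there with the block. The part of FOXO1 and FOXO3 in any target's level was not tested.

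Of 21 cofactors that bind forkhead proteins, all tested in both lines, 1 was called in 769-P, or 4.76% against the 10.03% of all genes, and 0 in ACHN. HDAC1, the deacetylase of the NuRD and SIN3 corepressors, rose from 56.8 ± 1.68 to 84.7 ± 3.13 FPKM (0.59 ± 0.06, adjusted p = 0.00517) and kept its call on leaving out each library in turn. With the block 7 of 21 were called in 769-P, 5 higher and 2 lower, against the 27.5% of all genes, and 3 of 21 in ACHN, all higher, against 12.2%: HDAC1 (0.51 ± 0.12), GATAD2A (0.44) and MTA1 (0.45), which are NuRD subunits. GATAD2A and MTA1 were at 0.39 and 0.48 in 769-P and were called there with the block too. Their paralogues in the list, HDAC2, GATAD2B and MTA2, which also belong to NuRD, were at -0.05, 0.19 and -0.10 in 769-P and at 0.05, 0.05 and -0.01 in ACHN, and none was called with or without the block. The medians of the 21 were 0.05 in both lines.

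**Figure D4:**
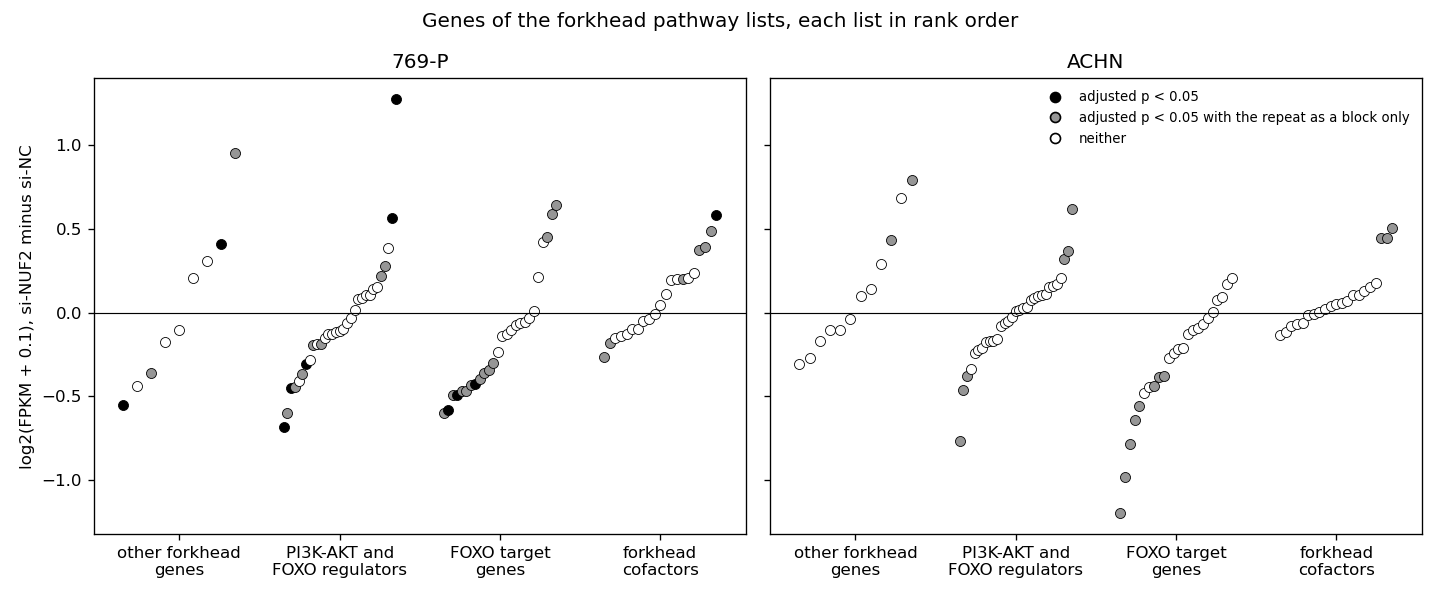
Difference of log2(FPKM + 0.1) between si-NUF2 and si-NC (y axis) for each tested gene of 4 lists (x axis, ranked within a list) in 769-P (left) and ACHN (right); black points were called by limma, grey points only with the repeat number as a block. Most FOXO targets lie below 0, 20 of 26 in 769-P and 19 of 24 in ACHN. Over all genes tested, 7289 of 14160 in 769-P and 7371 of 15116 in ACHN were below 0. No point is black in ACHN.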

How the data were processed

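The authors filtered reads with fastp. The submitters' processing notes name HISAT2 2.0.5, featureCounts 1.5.0-p3 and hg38; the annotation and strand setting are not given in the sources used here. The authors deposited FPKM values for 58302 genes in each of 12 libraries. The members and gene lists were chosen with earlier results of these data known. Coordinates, transcripts and sequences are from GENCODE 29 (GRCh38).

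FPKM values were scaled by a trimmed mean of log ratios (factors 0.986 to 1.02), transformed as log2(FPKM + 0.1), and fitted by limma 3.58.1 (R 4.3.3) within each line for knockdown, within each siRNA for line, and over all libraries for the difference in response, with Benjamini-Hochberg adjustment over all genes tested. Genes needed 0.5 FPKM in at least 3 libraries of the fit. Adjusted p below 0.05 was called. Scripts were tested on simulated data. Of FPKM values under 200 reads, 96.2% to 96.6% in each library were whole multiples of 1 read. Genes whole within 0.05 reads in all 12 libraries were used for limma-voom, an alternative added after seeing the data. FOXP1 was not whole at its GENCODE exon length and was used with 13628 bases, a length found by search. Limma-voom called 1754 genes in 769-P, against 1420.

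Within each line, same-numbered libraries deviated together from their group means (769-P r = 0.19 to 0.35, ACHN r = 0.46 to 0.73), so the labels' repeat numbers pair them there. No such check was made across the lines, where the block also used the repeat number. The study's methods state no block, and the main fit has none. Named genes were all members, NUF2, every forkhead gene that passed the filter, up to 4 called genes with the largest 769-P difference in each other list, the 5 genes most like FOXP4 and FOXN2, and noncoding neighbours; genes called only with the block, PDPK1, and PIK3IP1 were named after their values were seen. Differences on the log2(FPKM + 0.1) scale are smaller than the true log2 change where a gene is low.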

Additional observations from a re-analysis of the deposited data

Results flagged for a closer look

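FOXM1 differed in direction between the lines: all 3 same-numbered pairs were lower after si-NUF2 in 769-P (-0.06, -0.08 and -0.20) and all 3 higher in ACHN (0.10, 0.08 and 0.05), a difference in response of -0.19 on the log2 scale. This opposite direction was not tested as such, and the interaction test over all genes did not call FOXM1.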

How the results depend on the processing

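With the repeat number as a block, limma called 3897 genes for the knockdown in 769-P (1420 without it), 1843 in ACHN (0) and 230 for the difference in response (0). Under this block the calls were 4 other forkhead genes, 12 regulators, 15 FOXO targets and 7 cofactors in 769-P, 2, 6, 8 and 3 in ACHN, and 1 FOXO target for the difference in response. With all 12 libraries in one fit, 718 genes were called in 769-P and 165 in ACHN. In 769-P these held 1 other forkhead gene, 1 regulator, 1 FOXO target and the cofactor HDAC1, all higher. In ACHN they held 1 FOXO target, lower, and 1 cofactor, higher. CDKN1B, PPARGC1A and PRDX3, the FOXO targets called lower in 769-P, were not called in that fit. Without the filter on low values 649 genes were called in 769-P, with 0 other forkhead genes, 0 regulators, 0 FOXO targets and 1 cofactor. That setting called 15 genes for the difference in response, where a pseudocount of 0.01 gave 2. Limma-voom on recovered reads, chosen after seeing the data, called 8 FOXO targets in 769-P. The cause of these shifts was not tested.

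Leaving out 1 library at a time called 365 to 1144 genes in 769-P, 0 to 2 other forkhead genes, 0 to 2 regulators, 0 to 4 FOXO targets and 1 cofactor, and 0 to 1 gene for the difference in response, fits with fewer libraries than the main one. The whole-table count fell by more than 1.5 times without each 769-P library but the repeat 1 control: to 365 and 443 without the controls of repeats 2 and 3, and to 684, 553 and 389 without the si-NUF2 libraries of repeats 1 to 3. Between the lines under si-NC, 4 to 7 members were called, beside 7301 to 8142 of all genes (9446 in the main fit). Under si-NUF2, 4 to 6 members were called, beside 7152 to 8115 of all genes (9429 in the main fit). Some small differences changed sign on leaving out a library: between the lines under si-NUF2, FOXO3 ranged from -0.10 to 0.023 and FOXK2 from -0.082 to 0.038. In ACHN after knockdown, FOXD1 ranged from -0.23 to 0.13, FOXD4 from -0.52 to 0.040, FOXF2 from -0.63 to 0.35, FOXL2 from -0.11 to 0.048, FOXM1 from -0.12 to 0.29 and FOXO4 from -0.10 to 0.30. Of the members, FOXP1 in 769-P ranged from -0.055 to 0.17 and FOXP1 in ACHN from -0.35 to 0.14, FOXC1 from -0.15 to 0.28 and FOXN3 from -0.016 to 0.51 in ACHN, and FOXK1 from -0.029 to 0.14 and FOXJ3 from -0.015 to 0.055 in 769-P. No difference changed sign under another scaling, pseudocount or filter, with the block or in limma-voom, among 77 single-gene differences.

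The files give FPKM, so reads were inferred for the genes whose values were whole, and for FOXP1 at a length found by search. Of FOXO1 in ACHN, with 2 to 9 reads a library, no change was detectable at this depth.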
